A study of Homo sapiens with 4 samples.

Results

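The genes described here encode the chaperonins, the barrel-shaped chaperones of the cytosol and of the mitochondrion. They are TCP1, CCT2, CCT3, CCT4, CCT5, CCT6A, CCT7 and CCT8, which encode 8 subunits of the CCT complex, together with HSPD1 (HSP60) and HSPE1 (HSP10) of the mitochondrion. The rule was the presence of these 10 symbols among the 28729 genes of the expression table, and all 10 were found and were among the 12645 genes tested. The set was chosen because some chaperonin genes were lower with SKA3 knockdown while other chaperones were higher. The knockdown contrast therefore chose the genes, and their values in it are given as a description. Where a member is said to have passed the threshold of the fit across all genes, this places it in the table and is no test of the member. The question was how evenly the subunits of the complexes were expressed in these cells, and how each stood with SKA3 depleted.

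RNA was sequenced from TU-177, an established human laryngeal squamous cell carcinoma (LSCC) cell line, in 4 libraries. The 2 NC libraries came from cells transduced with a lentivirus carrying a negative control shRNA, and the 2 SKA3-KD libraries from cells transduced with a lentivirus carrying an shRNA against SKA3, a protein of the kinetochore that holds chromosomes to spindle microtubules. Both groups were selected with puromycin, and the resistant cells were harvested. This is what the sample labels give. The study's methods describe lentiviral shRNAs with puromycin selection for specific genes, stable SKA3 knockdown with sgRNAs and Cas9, and siRNAs for other assays. They do not say which of these knockdowns was sequenced. Only 1 cell line was used, and separate transductions for the replicates are not given in the sources used here, so p-values measure the spread between these libraries, which may be technical.

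Newly made polypeptides of actin, tubulin and other proteins reach their folded form inside CCT, a double ring in which each ring is built from the different subunit proteins side by side, so that every subunit has a fixed place. Prefoldin hands substrates to the rings, and ATP hydrolysis by the subunits drives their closure. In the mitochondrial matrix, HSP60 forms a ring of identical subunits with HSP10 as its lid, and folds proteins imported from the cytosol. HSPD1 and HSPE1 lie head to head on the same chromosome and share the stretch between their starts as a promoter, and both are known as heat shock genes.

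The reads behind the values numbered 9015056 to 11966130 a library. SKA3, the targeted gene, was measured at 9.40 and 9.64 FPKM (fragments per kilobase of exon, normalised to library depth) in NC 1 and NC 2 and at 3.77 and 4.12 FPKM in SKA3-KD 1 and SKA3-KD 2. Of 10 squamous epithelial markers, 4 had a mean of at least 1 FPKM (KRT17, SFN, DSP and EPCAM), whereas KRT5, KRT14 and KRT6A were at 0 or near it and TP63 and CDH1 were under 1 FPKM in every library. KRT17 passed as lower, at 45.6 and 49.1 FPKM in NC and 29.4 and 35.7 FPKM in SKA3-KD (log2 fold change -0.53, SE 0.11, limma adjusted p = 0.0396). Of 6 fibroblast markers, 3 reached a mean of 1 FPKM, and the list summed to 15.4 to 15.8 FPKM in NC and 8.86 to 9.56 FPKM in SKA3-KD, mostly through DCN, at 8.40 and 8.36 against 2.48 and 2.35 FPKM. PDGFRB, another fibroblast marker, stood the other way, at 2.88 and 2.46 FPKM in NC and 3.19 and 4.13 FPKM in SKA3-KD. COL1A2, the partner chain of the detected COL1A1, was at 0 or near it. Leukocyte markers summed to at most 0.495 FPKM and endothelial markers to at most 0.0968 FPKM. The part of KRT17 and the fibroblast markers in the results below was not tested.

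Promoter sequences are shown for 4 of the genes because they set the opposite directions described below side by side, HSPD1 against HSPE1 and CCT3 against CCT4. They are RefSeq windows of 300 bases on GRCh38.p14, from 250 bases before to 50 after an annotated start, read 5′ to 3′ on the strand of the gene. Capitals mark pairs of heat shock element units, GAANNTTC or TTCNNGAA, the sites bound by heat shock factors, and the E-box CACGTG, and all 3 read the same on either strand. The windows are chr2:197499791-197500090 (minus strand) for HSPD1, chr2:197500129-197500428 (plus) for HSPE1, chr1:156338243-156338542 (minus) for CCT3 and chr2:61888607-61888906 (minus) for CCT4.
HSPD1: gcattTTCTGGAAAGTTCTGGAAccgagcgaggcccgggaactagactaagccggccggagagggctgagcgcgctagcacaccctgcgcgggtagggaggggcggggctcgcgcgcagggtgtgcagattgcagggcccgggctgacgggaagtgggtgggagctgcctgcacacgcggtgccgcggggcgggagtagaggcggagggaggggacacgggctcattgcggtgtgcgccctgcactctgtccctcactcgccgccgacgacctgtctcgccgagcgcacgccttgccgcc
HSPE1: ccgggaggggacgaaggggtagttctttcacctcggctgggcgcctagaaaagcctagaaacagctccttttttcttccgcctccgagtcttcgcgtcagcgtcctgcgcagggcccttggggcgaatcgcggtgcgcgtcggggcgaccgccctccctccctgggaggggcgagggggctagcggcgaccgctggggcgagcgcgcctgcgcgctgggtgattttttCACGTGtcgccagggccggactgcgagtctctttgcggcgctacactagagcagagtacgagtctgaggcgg
CCT3: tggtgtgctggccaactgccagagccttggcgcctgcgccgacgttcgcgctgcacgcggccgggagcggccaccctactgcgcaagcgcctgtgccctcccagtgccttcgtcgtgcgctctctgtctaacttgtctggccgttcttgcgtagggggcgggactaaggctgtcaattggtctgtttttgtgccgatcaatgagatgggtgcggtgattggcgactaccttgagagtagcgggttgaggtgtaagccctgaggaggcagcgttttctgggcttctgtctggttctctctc
CCT4: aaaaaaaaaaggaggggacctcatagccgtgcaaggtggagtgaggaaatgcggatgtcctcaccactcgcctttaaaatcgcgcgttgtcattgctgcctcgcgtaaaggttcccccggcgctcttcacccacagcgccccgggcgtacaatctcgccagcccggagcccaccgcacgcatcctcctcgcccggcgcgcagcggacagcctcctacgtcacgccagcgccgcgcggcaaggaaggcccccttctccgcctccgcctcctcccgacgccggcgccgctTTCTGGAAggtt

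Windows were at hand for 9 of the 10 genes, 12 windows in all, and CCT6A had no entry. The HSPD1 window holds 3 overlapping pairs, 2 of TTCNNGAA and 1 of GAANNTTC, beginning at positions -245, -240 and -235 when the start is counted as 0. By the coordinates above, these pairs lie between the starts of the HSPD1 and HSPE1 windows shown, just outside the HSPE1 window. By these starts the pairs are part of the shared stretch, and only the cut of the windows assigns them to HSPD1. Other annotated starts place the pairs inside a gene. The GENCODE span of HSPE1 given below begins before them, and the second HSPD1 window has its start upstream of them. The CCT4 window shown holds 1 pair at position 38, inside the transcribed stretch, and a further CCT4 window holds none. TCP1 holds 1 GAANNTTC, and CCT2 holds 1 in only 1 of its windows. Across all 35116 RefSeq windows, 13.5% held either pair, 7.26% held CACGTG and 34.6% held CCAAT, the box bound by NF-Y, searched on both strands. CACGTG occurred in the HSPE1 window and in the second HSPD1 window, where it is the same 6 bases read from the other strand, because these windows overlap. CCAAT occurred in 4 of the genes, at 2 places in CCT3 and at 1 place each in TCP1, CCT2 and CCT8. The CCT3 window holds no heat shock pair, and the CCT5 and CCT7 windows hold none of the 4 motifs. GC content ran from 57.7% to 70.7% over the 12 windows, with a median of 58.7% over all windows. A match is a run of letters in a window, and binding was not measured.

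In NC cells the chaperonin genes were among the most expressed genes of the table. HSPD1 and 7 of the CCT genes stood in the top 5% of the genes tested, from HSPD1 at 1.10% to CCT2 at 4.35%, TCP1 stood at 6.67% and HSPE1 at 27.2%. With SKA3 knockdown the CCT genes stood to either side of their NC level, with CCT3 and CCT5 lower and CCT4 and CCT7 higher. TCP1, CCT2, CCT6A and CCT8 were higher without passing the threshold, an adjusted p-value of 0.05 in limma across all genes tested. The mitochondrial pair parted in the same way, HSPD1 being lower and HSPE1 higher. Of the 10 genes, 3 passed as lower and 3 as higher, where 6.11% of all genes tested passed as lower and 6.16% as higher (12.3% in either direction), and nothing is read from these counts because the contrast chose the genes. No value overlapped between NC and SKA3-KD for any of the 10, which held for 61.6% of all genes tested. In bulk RNA, a smaller number of cells with a transcript and less of it in each cell cannot be told apart.

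Among the CCT subunits, CCT3, the gene of the gamma subunit, showed the largest fall. It reached 151 FPKM in NC 1 and 147 in NC 2 (mean 149 ± 3.37, SD, n = 2), and 116 in SKA3-KD 1 and 109.9 in SKA3-KD 2 (113 ± 4.26). Both SKA3-KD libraries lay well under both NC libraries, and the mean decreased by 24.3%, a log2 fold change of -0.40 (SE 0.06) on log2(FPKM + 1). CCT5 encodes the epsilon subunit. It was measured at 164 and 158 FPKM in NC (161 ± 3.87) and at 137 and 136 FPKM in SKA3-KD (136 ± 1.26), so the groups stood apart with little spread inside either. The mean of CCT5 decreased by 15.3%, a log2 fold change of -0.24 (SE 0.05), and of the 6 genes past the threshold it was the nearest to it. These were also the second and the third most expressed subunit genes of NC cells.

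CCT4 and CCT7, the genes of the delta and eta subunits, stood on the other side. CCT4 was measured at 97.0 and 91.2 FPKM in NC (94.1 ± 4.07) and at 125 and 118 FPKM in SKA3-KD (121 ± 5.48). Its mean was 29.0% higher, a log2 fold change of 0.36 (SE 0.06), and the gap between the groups was wider than the distance between the libraries of either. CCT7 was measured at 127 and 124 FPKM in NC (125 ± 1.69) and at 158 and 164 FPKM in SKA3-KD (161 ± 3.69). With a mean 28.4% higher and a log2 fold change of 0.36 (SE 0.05), CCT7 had nearly the same change as CCT4. It was also the only one of the 10 genes with a higher value in SKA3-KD 2 than in SKA3-KD 1.

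The remaining 4 subunit genes lay higher in SKA3-KD and did not pass. Their means were higher by 16.6% (CCT2), 15.7% (TCP1), 14.1% (CCT6A) and 7.83% (CCT8). The changes of CCT2, TCP1 and CCT6A were thus close in size to that of CCT5, which passed with a mean decreased by 15.3%. TCP1, which encodes the alpha subunit and gave the complex its older name TCP-1 ring complex, was at 55.0 and 50.2 FPKM in NC (52.6 ± 3.42) and at 61.8 and 59.9 FPKM in SKA3-KD (60.9 ± 1.35), a log2 fold change of 0.21 (SE 0.07). CCT2, the gene of the beta subunit, was at 79.8 and 70.8 FPKM in NC (75.3 ± 6.39) and at 88.7 and 86.9 FPKM in SKA3-KD (87.8 ± 1.30), a log2 fold change of 0.22 (SE 0.07). In both genes the NC libraries were farther from each other than the SKA3-KD libraries were. CCT6A, the gene of the zeta subunit used outside the testis, was at 194 and 179.7 FPKM in NC (187 ± 10.4) and at 217 and 209.5 FPKM in SKA3-KD (213 ± 5.37), a log2 fold change of 0.19 (SE 0.06). CCT8, which encodes the theta subunit, was at 144 and 133 FPKM in NC (139 ± 7.87) and at 153 and 146 FPKM in SKA3-KD (149.5 ± 4.93), a log2 fold change of 0.11 (SE 0.06). For CCT8 the lower SKA3-KD library exceeded the higher NC library only narrowly, less than the libraries of either group differed.

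HSPD1, the gene of HSP60, had the largest change of the set. It was measured at 243 FPKM in NC 1 and 219 FPKM in NC 2 (231 ± 17.2), and at 169 and 156 FPKM in SKA3-KD (163 ± 9.50). The mean decreased by 29.6%, a log2 fold change of -0.50 (SE 0.08), and although the NC libraries differed from each other by more than those of most other members, the higher SKA3-KD value was far below the lower NC value. HSPE1, the gene of the HSP10 lid, was measured at 14.7 and 14.3 FPKM in NC (14.5 ± 0.324) and at 18.5 and 18.0 FPKM in SKA3-KD (18.3 ± 0.401). Its mean was 26.1% higher, a log2 fold change of 0.31 (SE 0.06), with nearly equal values inside each group. HSPE1 rested on 254 to 419 reads a library, against 2229 to 12362 for the other members, and counting error alone gave it an SE of 0.08 on the log2 scale, which is above the fitted SE.

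**Figure D1:**
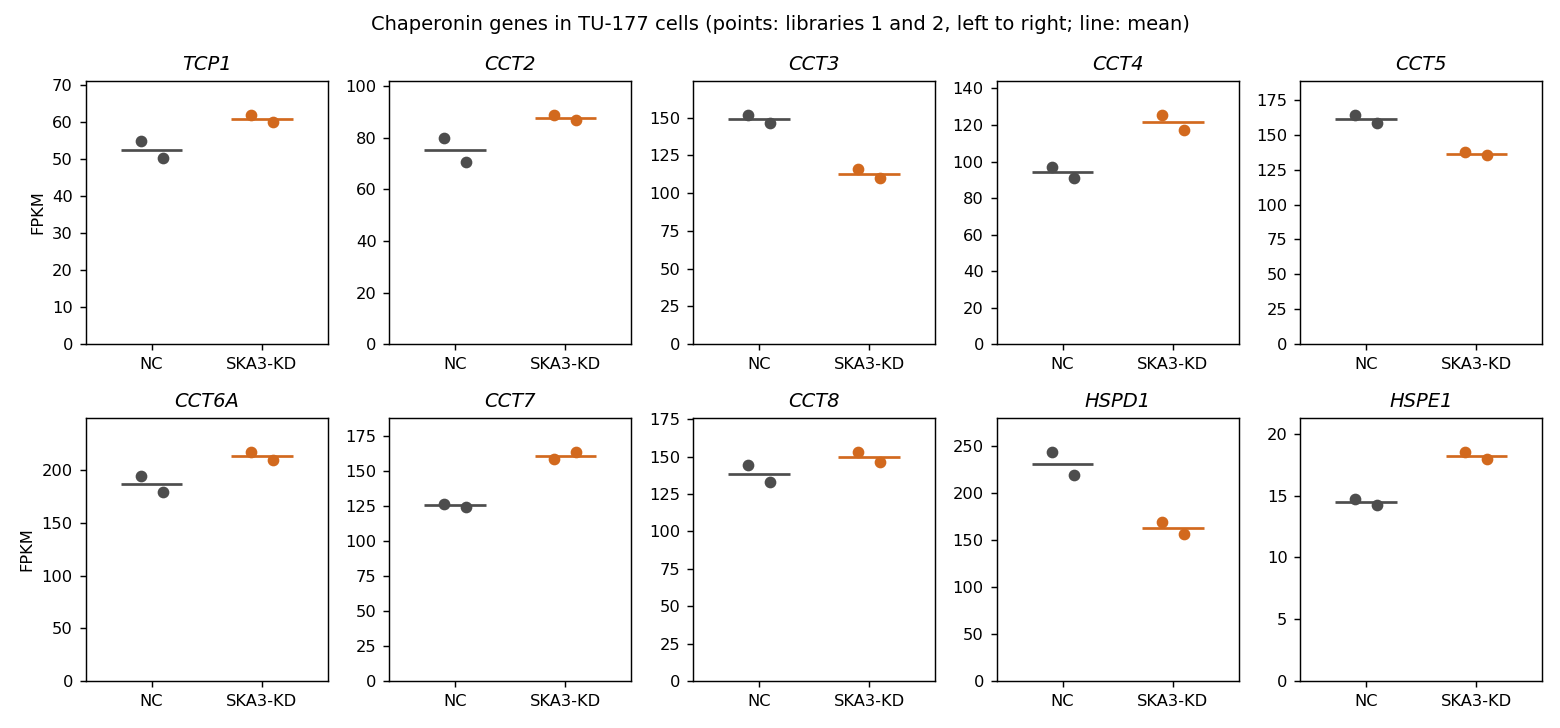
FPKM of the 10 chaperonin genes (vertical axes from 0, 1 scale for each gene) in NC (grey) and SKA3-KD (orange); points are libraries 1 and 2 from left to right and lines are the means of the 2 libraries. CCT3, CCT5 and HSPD1 lie lower in SKA3-KD, the other 7 genes lie higher, and no gene overlaps between the groups.

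The ratio of HSPD1 to HSPE1, a comparison per length, was 16.5 and 15.4 in NC (16.0 ± 0.832) and 9.14 and 8.68 in SKA3-KD (8.91 ± 0.325). By FPKM, HSPD1 thus exceeded HSPE1 in every library, by less in SKA3-KD. HSPE1 shares exon bases with other genes and has many processed copies, as described below. How reads in them were counted is not known, so the size of this ratio is uncertain. Likewise the ratio of CCT7 to CCT3 went from 0.836 and 0.847 in NC to 1.37 and 1.49 in SKA3-KD, so that the order of these subunit genes was inverted. The ratio of CCT4 to CCT5 was 0.592 and 0.576 in NC and 0.912 and 0.867 in SKA3-KD, and CCT5 stayed the higher of the pair. With 2 libraries a group an exact permutation test cannot give a two-sided p below 0.333, and none is given for these ratios, the sums or the shares, which combine genes chosen on the same contrast.

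The members differed together between replicates. NC 2 was below NC 1 in all 10 genes and SKA3-KD 2 below SKA3-KD 1 in 9 of 10, where 52.4% and 50.6% of all genes tested were below. NC 2 was also the library with the fewest reads, whereas SKA3-KD 2 had more reads than SKA3-KD 1 (11793604 against 10177854). The part of depth was not tested. The log2 fold change of each member kept its sign with any library left out, as the ranges in the plot of log2 fold changes show. The smallest changes depended on the NC libraries, CCT8 going from 0.11 to 0.05 without NC 2 and to 0.17 without NC 1, and CCT2 from 0.22 to 0.14 without NC 2. With 3 libraries, no member passed the threshold, whichever of NC 1, NC 2, SKA3-KD 1 and SKA3-KD 2 was left out. Across the whole table far fewer genes passed then than the 772 lower and 779 higher with all 4 libraries. A group then held a single library, so no counts are given for these fits.

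**Figure D2:**
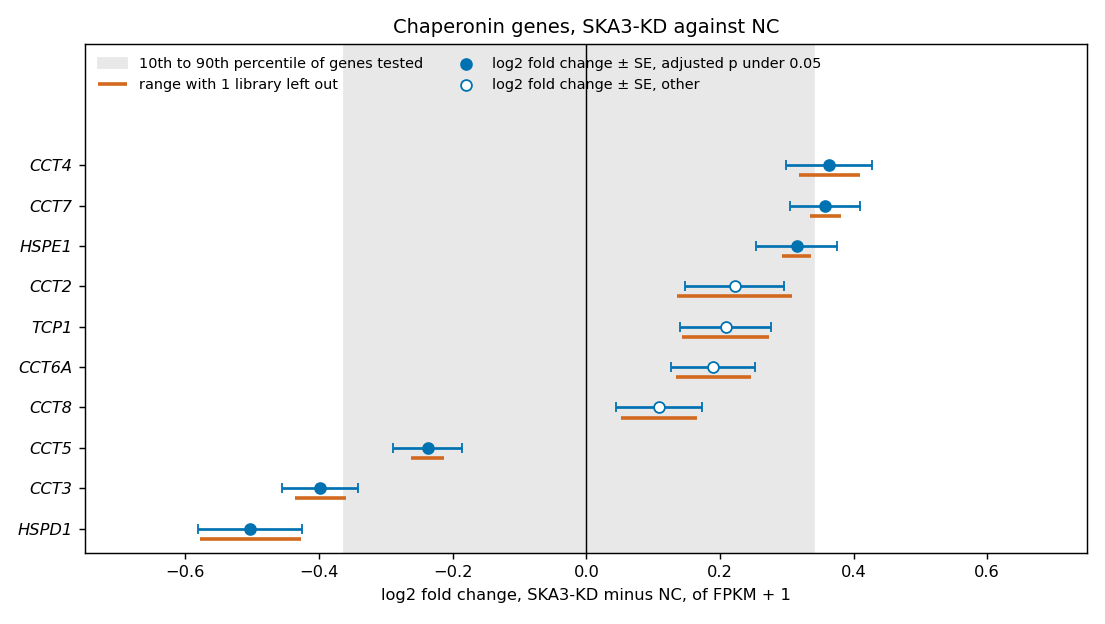
Log2 fold change of log2(FPKM + 1), SKA3-KD minus NC, for each chaperonin gene; bars are SE, filled points passed an adjusted p-value of 0.05 in limma, orange lines span the values with 1 library left out and the grey band covers the 10th to 90th percentile of all genes tested (-0.36 to 0.34). HSPD1 and CCT3 lie below the band, CCT4 and CCT7 above it, and no line crosses 0.

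The summed FPKM of the 8 CCT genes was 1012 and 954 in NC (983 ± 41.1) and 1058 and 1029 in SKA3-KD (1043 ± 20.3), a difference of 6.10% of the NC mean. The gap between the lower SKA3-KD sum and the higher NC sum was smaller than the gap between the NC sums. Inside this nearly level total the shares of the subunits differed. CCT3 made up 15.2% ± 0.291 of the sum in NC and 10.8% ± 0.198 in SKA3-KD, and CCT5 made up 16.4% ± 0.290 and 13.1% ± 0.133. The share of CCT7 was 12.8% ± 0.361 in NC and 15.4% ± 0.654 in SKA3-KD, and that of CCT4 was 9.57% ± 0.0142 and 11.6% ± 0.300. Differences were smaller for CCT6A (19.0% in NC, 20.4% in SKA3-KD), CCT2 (7.65% and 8.42%), TCP1 (5.35% and 5.83%) and CCT8 (14.1% and 14.3%).

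By deposited FPKM, the order of the subunit genes was the same in both libraries of a group and differed between the groups. In NC it ran CCT6A, CCT5, CCT3, CCT8, CCT7, CCT4, CCT2 and TCP1 from high to low, and in SKA3-KD it ran CCT6A, CCT7, CCT8, CCT5, CCT4, CCT3, CCT2 and TCP1. No pair of neighbours overlapped between the libraries of a group, the closest in NC being CCT3 and CCT8, with a lower value of 147 for CCT3 and a higher value of 144 FPKM for CCT8. CCT6A, CCT2 and TCP1 kept their places in every library. The level of the highest subunit gene was 3.50 to 3.58 times that of the lowest in the 4 libraries. The coefficient of variation over the 8 genes was 36.7% and 37.6% in NC and 35.6% and 36.1% in SKA3-KD. By deposited FPKM, transcript levels of subunits that occur once in each ring were thus unequal in both groups to about the same degree.

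**Figure D3:**
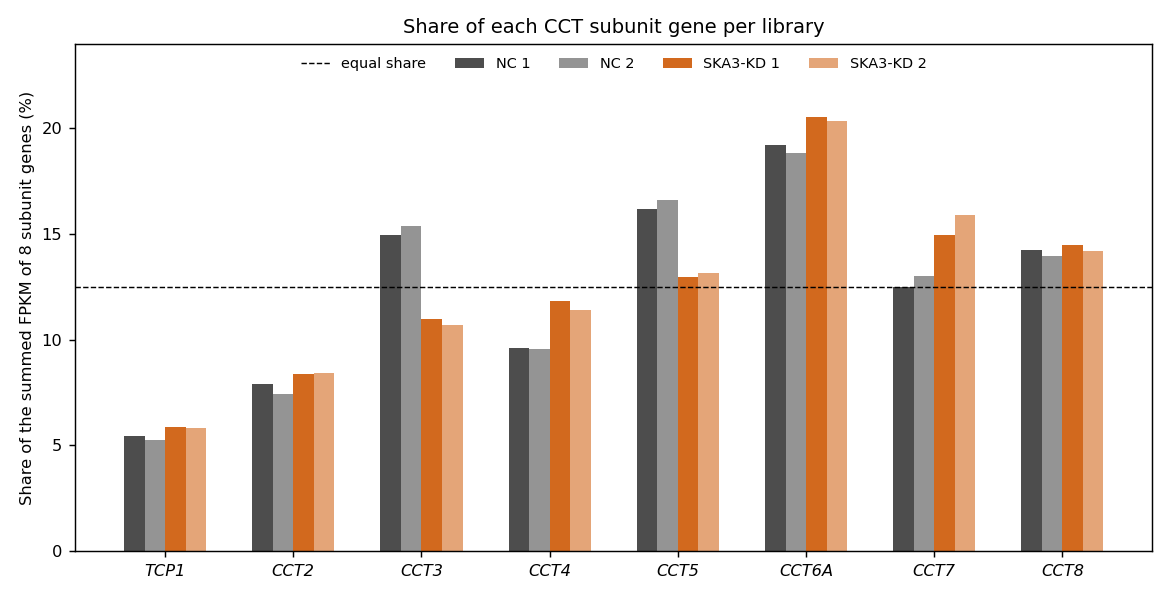
Share of each CCT subunit gene in the summed FPKM of the 8 genes (vertical axis in percent, from 0), a bar for each library, with the equal share as a dashed line. CCT3 and CCT5 take a smaller share in both SKA3-KD libraries, CCT4 and CCT7 a larger one, and CCT6A has the highest share in all 4 libraries.

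Levels of different genes depend on the length each count is divided by. The FPKM values matched whole reads for 8 of the 10 members when the summed length of all annotated exons was used, from 1977 bases in HSPE1 to 5839 in CCT5. CCT7 and CCT8 did not match, so the length behind their values is not known. As an alternative chosen after seeing the data, levels were recomputed per length of the transcript with the longest coding sequence, 950 bases for HSPE1 and 3675 for CCT5. CCT3 then led the NC order with 17.0% of the sum, followed by CCT6A with 16.4% and CCT5 with 15.6%, and CCT4 had 6.45% in place of 9.57%. Libraries of a group then no longer agreed in order, CCT7 and CCT8 exchanging places between NC 1 and NC 2, and CCT6A and CCT7 exchanging the first place between SKA3-KD 1 and SKA3-KD 2. The values were close, at 237 for CCT7 and 240 for CCT8 in NC 1, and at 301 for CCT6A and 307 for CCT7 in SKA3-KD 2. These exchanges are uncertain, because CCT7 and CCT8 were rescaled from a length that their values did not match. The highest subunit was then 2.55 to 2.77 times the lowest. The coefficient of variation over the 8 genes was then 34.2% and 35.7% in NC and 31.1% and 32.6% in SKA3-KD, lower in both SKA3-KD libraries. HSPD1 exceeded HSPE1 by 13.7 and 12.8 times in NC and by 7.60 and 7.21 times in SKA3-KD. Differences between NC and SKA3-KD within a gene do not depend on this length, whereas the order of the genes and the spread over them do.

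**Figure D4:**
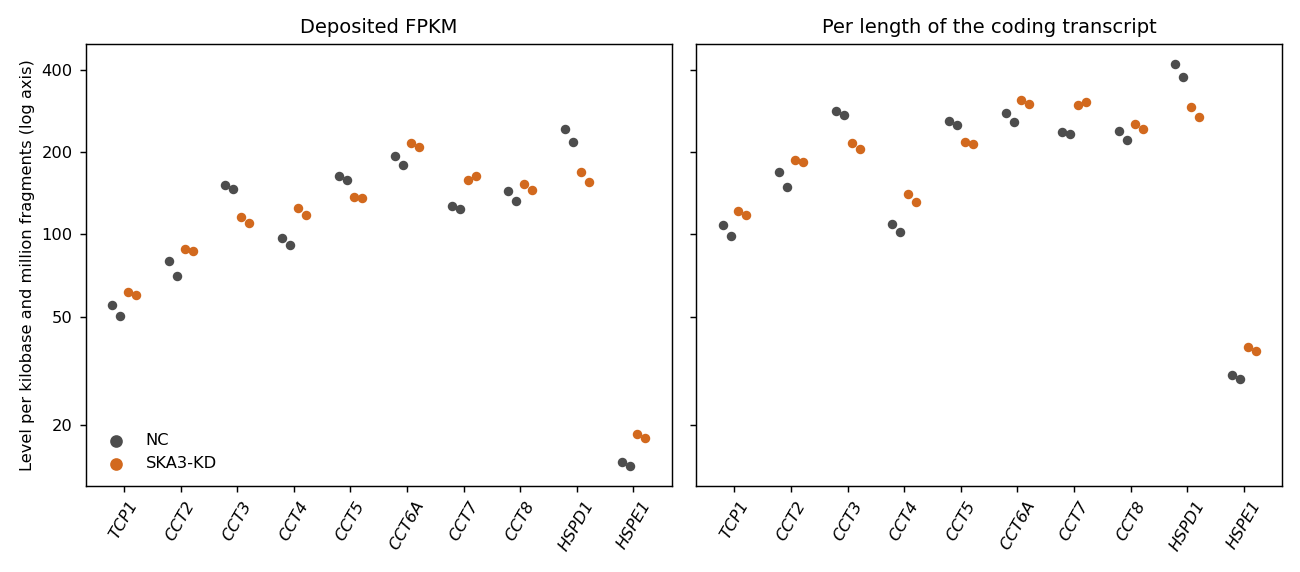
Level of each chaperonin gene in every library (log axis, per kilobase, normalised to library depth), left as deposited and right per length of the coding transcript. The distance between grey NC points and orange SKA3-KD points of a gene is the same on both sides, while the order of the genes changes, with CCT3 in NC rising above CCT5 and CCT6A.

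Positions are those of GENCODE 29 on GRCh38, whereas the submitters' processing notes name hg19, so they describe the genes and not the alignment. CCT3 (ENSG00000163468) lies at chr1:156308968-156367873 on the minus strand, CCT4 (ENSG00000115484) at chr2:61868089-61888804 on the minus strand, CCT5 (ENSG00000150753) at chr5:10249921-10266412 on the plus strand and CCT7 (ENSG00000135624) at chr2:73233420-73253021 on the plus strand. HSPD1 (ENSG00000144381) lies at chr2:197486581-197516737 on the minus strand and HSPE1 (ENSG00000115541) inside that span at chr2:197499994-197503457 on the plus strand. The 4 subunit genes that did not pass are TCP1 (ENSG00000120438, chr6:159778498-159789749, minus), CCT2 (ENSG00000166226, chr12:69585334-69601570, plus), CCT6A (ENSG00000146731, chr7:56051630-56063989, plus) and CCT8 (ENSG00000156261, chr21:29055805-29073797, minus). CCT4, CCT7, HSPD1 and HSPE1 thus share chromosome 2, but the only adjacent members are HSPD1 and HSPE1.

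Other annotated genes share exon bases with 5 of the members, and whether the counting used strand is not given in the sources used here, so reads in these bases could belong to either gene. HSPD1 and HSPE1 share 281 exon bases on opposite strands, 6.62% of the exons of HSPD1 and 14.2% of those of HSPE1. HSPE1 shares a further 192 bases with the readthrough gene HSPE1-MOB4, which was not analysed here, and 23.9% of its exon length is shared in all. CCT5 shares 1757 bases (30.1%) with the antisense gene AC012640.4, listed at 0 in all 4 libraries. CCT4 shares 12.6% of its exon length, mostly with AC107081.2 (0.211 to 0.858 FPKM), and TCP1 shares 11.1%, mostly with ACAT2, an acetyl-CoA acetyltransferase gene at 15.3 and 14.2 FPKM in NC and 10.4 and 11.0 FPKM in SKA3-KD. CCT2, CCT3, CCT6A, CCT7 and CCT8 share no exon base with another annotated gene.

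Processed copies of the chaperonin genes are common in the genome, and reads of a gene and a near-identical copy cannot always be told apart. Of 56 annotated pseudogenes named after members, 24 were in the table, 20 were above 0 in some library and 3 reached a mean of 1 FPKM. The highest was CCT6P1, at 6.54 and 5.44 FPKM in NC and 5.22 and 6.64 FPKM in SKA3-KD, far below CCT6A. HSPE1 had the most copies, 26 annotated and 10 in the table, of which HSPE1P3 was the highest at 2.16, 0.359, 1.91 and 1.65 FPKM in NC 1, NC 2, SKA3-KD 1 and SKA3-KD 2. Copies of HSPE1 summed to 2.21 to 2.99 FPKM a library, beside 14.3 to 18.5 FPKM for HSPE1 itself. HSPD1P1, the highest copy of HSPD1, stayed at or below 0.919 FPKM and CCT8P1 at or below 0.256 FPKM. CCT6B, the testis form of the zeta subunit, had 6, 3, 1 and 5 reads and was not tested.

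Genes that work with CCT were next set beside it, from lists written with earlier results of these data known. Over the 91 tested genes of all 11 lists, 3 passed as lower (3.30%) and 15 as higher (16.5%), against 6.11% and 6.16% of all genes tested, and 10 of the 15 came from the cytosolic stress chaperones, whose rise was part of the choice of the members. Over the 77 tested genes of the other 10 lists, 3 passed as lower (3.90%) and 5 as higher (6.49%). None of the 6 genes of prefoldin, the complex that delivers substrates to CCT, passed, and their median log2 fold change was 0.05 beside 0.01 for all genes tested. PFDN2, the highest of them, was at 113 and 117 FPKM in NC and at 141 and 124 FPKM in SKA3-KD (limma, adjusted p = 0.155). In the prefoldin-like list, 1 of 3 genes passed, URI1, which assembles a prefoldin-like complex bound to RNA polymerases. It was at 17.4 and 15.6 FPKM in NC and at 12.3 and 12.8 FPKM in SKA3-KD, a log2 fold change of -0.37 (SE 0.08, limma adjusted p = 0.0447). Neither the 3 tested phosducin-like cofactors, which bind CCT directly, nor the 5 tested tubulin cofactors, which take tubulin over from it, held a gene that passed, with medians of -0.12 and 0.12. Their highest genes were PDCL, at 19.4 and 20.4 FPKM in NC and 19.0 and 17.6 FPKM in SKA3-KD, and TBCA, at 51.3 and 45.3 FPKM against 41.9 and 37.4 FPKM.

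Log2 fold changes were above 0 for 15 of the 22 tested substrates of CCT. Of these 22, 5 passed as higher and 1 as lower, where 6.16% and 6.11% of all genes tested did. The median log2 fold change was 0.12, beside 0.01 for all genes tested. Nothing is read from these counts, because the list was written with earlier results of these data known. The cytoplasmic actins, the most abundant substrates, were both higher, ACTB at 1463 and 1497 FPKM in NC and 2079 and 2121 FPKM in SKA3-KD (log2 fold change 0.50, SE 0.05, limma adjusted p = 0.0122). ACTG1 was at 602 and 651 FPKM in NC and at 873 and 926 FPKM in SKA3-KD, a log2 fold change of 0.52 (SE 0.07, limma adjusted p = 0.0174). CDC20, the activator of the anaphase-promoting complex, which CCT is known to fold, had the largest rise of the list, from 63.7 and 62.5 FPKM to 91.4 and 93.0 FPKM, a log2 fold change of 0.54 (SE 0.05, limma adjusted p = 0.0114). CCNE1, the gene of cyclin E1, was the substrate that passed as lower, at 14.8 and 12.8 FPKM in NC and 10.2 and 9.44 FPKM in SKA3-KD, a log2 fold change of -0.45 (SE 0.09, limma adjusted p = 0.0407). The other substrates that passed, the beta-tubulin gene TUBB4B and the G-protein gene GNB1, were higher, each by a log2 fold change of 0.25 (SE 0.05). Actin genes have many processed copies and tubulin isotypes are close in sequence, so their split between genes is uncertain. Of the chaperonin-like genes of ciliary disease, MKKS, BBS10 and BBS12, none passed, and BBS10, the highest, was at 7.53 and 7.41 FPKM in NC and 7.38 and 7.55 FPKM in SKA3-KD.

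Of the mitochondrial genes around HSP60, 1 passed, and it was lower. None of the 6 tested genes of the mitochondrial HSP70 system, which receives imported proteins before HSP60, passed, with a median log2 fold change of 0.11. HSPA9, the mitochondrial HSP70 itself, was at 144 and 138 FPKM in NC and 161 and 155 FPKM in SKA3-KD, a log2 fold change of 0.16 (SE 0.06, limma adjusted p = 0.133). None of the 10 proteases of the organelle passed, with a median of 0.13, and LONP1, the matrix protease with the highest level among them, was at 43.9 and 50.7 FPKM in NC and at 49.6 and 55.1 FPKM in SKA3-KD. Of 17 tested import genes, 1 passed, as lower, and the median was -0.16. It was TOMM7, a small subunit of the outer membrane pore, at 107 and 95.9 FPKM in NC and 73.3 and 68.2 FPKM in SKA3-KD (log2 fold change -0.51, SE 0.08, limma adjusted p = 0.0237). Before adjustment, 8 of the 17 import genes were lower and 3 higher with a limma p-value under 0.05. Of all genes tested, 15.1% were then lower and 16.2% higher. After adjustment, limma voom on the recovered reads called 3 import genes lower and 1 higher, beside 1548 lower and 1744 higher of all 12608 genes. For the lists in which limma called 0 genes, an unadjusted p-value under 0.05, met by 31.3% of all genes tested, was met by 2 of 6 prefoldin genes, 3 of 5 tubulin cofactors, 1 of 6 genes of the HSP70 system, 2 of 10 proteases, 1 of 2 heat shock factors and none of the phosducin-like or chaperonin-like genes. With limma voom on the recovered reads, 1 prefoldin gene, 2 tubulin cofactors and 1 protease passed after adjustment.

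The cytosolic stress chaperones, whose rise was part of the reason for choosing the chaperonins, had positive log2 fold changes in 14 of 14 genes, with a median of 0.44, and 10 passed as higher, which restates the choice and is no further evidence of it. Among them HSPA1B, a stress-inducible HSP70 gene, had a log2 fold change of 0.69, HSP90AA1, an HSP90 gene, of 0.67, DNAJB1, a cochaperone of HSP70, of 0.57 and HSPA8, the constitutive HSP70 gene, of 0.51, and reads of HSPA1A and HSPA1B, near-identical copies, cannot be split with certainty. The 8 CCT genes had a median of 0.20, with 6 above 0 and 2 below. HSPD1 stood at -0.50 and HSPE1 at 0.31, and any part of the heat shock units near their starts was not tested. Of the heat shock factors, HSF1 was at 12.5 and 15.0 FPKM in NC and at 13.3 and 15.6 FPKM in SKA3-KD, and neither HSF1 nor HSF2 passed.

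**Figure D5:**
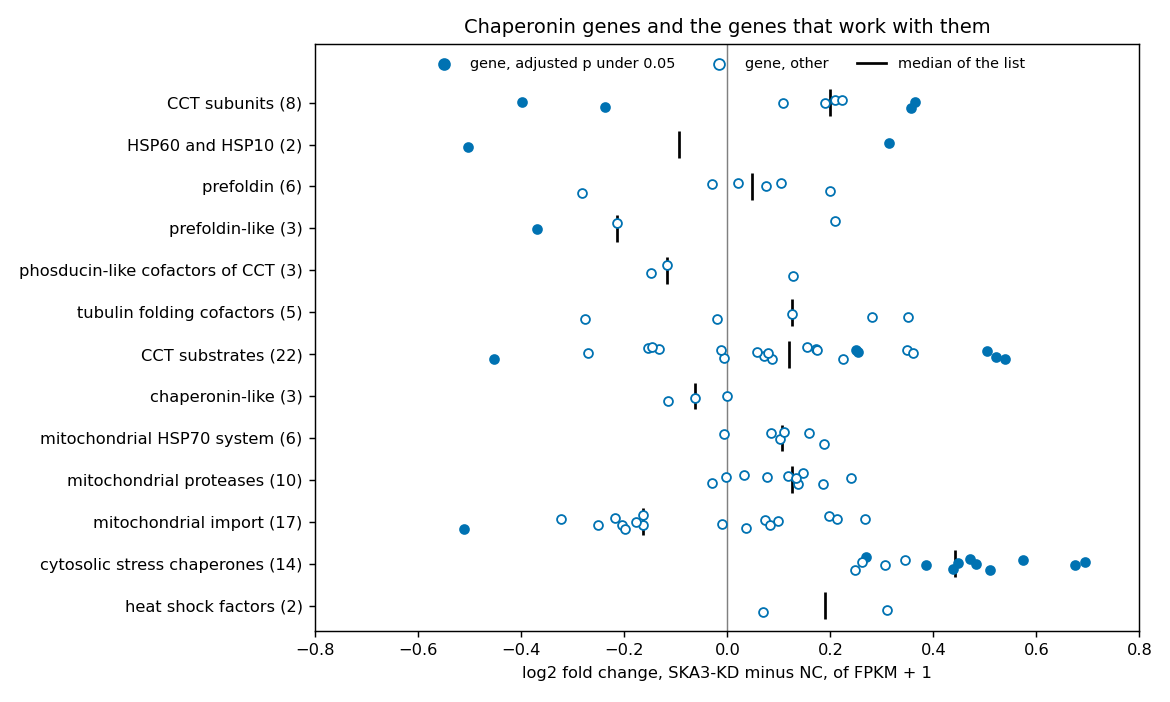
Log2 fold change of log2(FPKM + 1), SKA3-KD minus NC, for each tested gene of the chaperonin sets and of the lists of genes that work with them (number tested in brackets); filled points passed an adjusted p-value of 0.05 in limma and black bars are list medians. CCT subunits and the HSP60 and HSP10 pair have filled points on both sides of 0, while the 14 cytosolic stress chaperones all lie above 0.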

How the data were processed

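The authors deposited FPKM values per gene for 2 NC and 2 SKA3-KD libraries. The submitters' processing notes name Bowtie2 2.2.8, HISAT2, StringTie 1.3.1, Cuffdiff 2.1.1 and the build hg19, with no role for each, and the annotation and use of strand are not given in the sources used here. Symbols, exon lengths and positions came from GENCODE 29 (GRCh38) by Ensembl identifier and covered 27199 of 28729 genes. Reads behind the values were recovered from their steps, as whole numbers within 0.02 for 91.5% of the 26504 genes above 0. The FPKM values carry no correction for sequence composition.

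SKA3-KD was compared with NC on the log2(FPKM + 1) scale by limma 3.58.1 in R 4.3.3, with the prior variance following the mean level. The pseudocount of 1 understates changes of low genes. A mean of at least 1 FPKM admitted 12645 genes, no scaling was added, and genes with a Benjamini-Hochberg adjusted p-value under 0.05 are said to have passed. On simulated data with 2-fold changes in 186 of 11844 genes, limma on log2(FPKM + 1) recovered 136 of them with 16 false calls. On the same data limma voom recovered 167 with 8 false calls. Smaller changes, like those of the members, were not simulated. All 10 members are named, and from each list the genes past the threshold, up to 4 of the largest changes, or the gene with the highest mean where none passed. The substrates TUBB4B and GNB1 and the markers with values were named beyond this rule, after their values were seen. Members and lists were chosen with earlier results of these data known. Other settings tried were a smaller pseudocount (0.1), a mean of at least 5 FPKM or no minimum, quantile normalization, scaling by median ratios, a prior variance that is robust or has no trend, a replicate block, voom in limma on recovered reads, leaving out each library in turn, and, for the shares, counting CCT6B as a subunit or another gene length. TIMM23, TOMM6, TBCE, PDCL2 and CCT8L2 of the lists were not analysed here. Counts, shares, motif searches and plots were made in Python 3.11.15 (numpy 2.4.6, pandas 2.3.3, matplotlib 3.10.9).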

Additional observations from a re-analysis of the deposited data

How the results depend on the processing

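As a description of genes chosen on this contrast, no member changed the sign of its log2 fold change under any alternative. CCT3, CCT4, CCT7, HSPD1 and HSPE1 passed the threshold in 7 of the 9 alternatives that used all libraries, CCT5 in 6, CCT6A in 3, TCP1 and CCT2 in 1 and CCT8 in 0. Without a filter on low FPKM, 81 genes passed as lower and 48 as higher, with 0 members either way and 0 and 1 genes of the partner lists. At an unadjusted limma p-value under 0.05 the members were 3 and 6, beside 2335 and 2442 of all 26504 genes. Without a mean-variance trend the counts were 381 and 312 genes, 0 and 0 members, and 0 and 8 partner genes. At an unadjusted limma p-value under 0.05 the members were then 3 and 3, beside 1801 and 1906 of all 12645 genes. With a mean of at least 5 FPKM, 5 and 24 of 86 tested partner genes passed, beside 887 and 993 of all 7303 genes. On recovered reads, limma voom called 1548 genes lower and 1744 higher, with 6 members higher and 8 and 25 partner genes, and TCP1, CCT2 and CCT6A joined the members that passed. Under quantile normalization CCT5 was lost and CCT6A gained. The cause of these shifts was not tested. With 1 library left out, 0 to 135 genes passed as lower and 0 to 46 as higher, and 0 members and 0 partner genes in either direction (3 lower and 3 to 6 higher members, and 5 to 10 lower and 20 to 29 higher partner genes, at an unadjusted p-value under 0.05), each lone library being assumed to vary like the other group, and the median of the CCT genes ranged from 0.13 to 0.26.

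The replicate number as a block gave 965 genes lower and 1002 higher, 3 members lower and 4 higher, CCT6A being added. Deviations of same-numbered libraries correlated at 0.097 across the genes tested, and the labels give the numbers no meaning. Whether same-numbered libraries share a batch is not known and was not tested.

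Per length of the coding transcript, an alternative chosen after seeing the data, the NC shares were 6.33% (TCP1), 9.72% (CCT2), 17.0% (CCT3), 6.45% (CCT4), 15.6% (CCT5), 16.4% (CCT6A) and 14.4% (CCT7). Counting CCT6B as a further subunit moved no share by more than the replicates differed. HSPE1, with 254 to 419 reads a library, is the member that depth limits most.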
